A study of Mus musculus with 16 samples.

Results

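The genes of the DNA replication machinery were followed in ventricles of lactating and nulliparous mice with and without Npr1, the gene of a receptor for the heart's natriuretic peptides. They are 38 of the 21154 genes named on the array, listed by symbol from origin licensing to chromatin assembly at the fork. Each was found through the RefSeq accession of its probes and is represented by its brightest probe. All 38 had a probe, 36 passed the filter on low signals and were tested, and 32 were well above background on all 16 arrays. To be tested, a gene needed 1 group in which all 4 arrays read its probe well above background.

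Total RNA of 16 female mice was hybridised to one-colour Agilent arrays, 1 mouse to an array. The groups were Npr1-/- mice after 2 weeks of lactation, Npr1+/+ mice after 2 weeks of lactation, nulliparous Npr1-/- mice and nulliparous Npr1+/+ mice, with 4 independent mice in each. The labels give the genotype and sex and no age, strain or allele. The tissue is whole ventricle, so every level is an average over its cell types.

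DNA replication starts when the origin recognition complex, with CDC6 and CDT1, loads the MCM helicase ring onto DNA. CDC45 and the GINS complex then turn the ring into an active helicase, primase starts each new strand, and polymerases held by the sliding clamp PCNA extend it. Ribonucleotide reductase, thymidylate synthase and thymidine kinase supply the nucleotides. Adult cardiomyocytes rarely enter the cell cycle, and many of these genes are also used in DNA repair.

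Levels are log2 signals minus the 75th percentile of the array, so 0 is that percentile and each unit is a doubling. That percentile was a signal of 278 to 347 on the lactating arrays and of 165 to 221 on the nulliparous arrays other than nulliparous Npr1-/- replicate 4, which had 284. On an array, 48.5% to 58.6% of the 55681 probes were well above background. All 8 ventricular cardiomyocyte markers were well above background on every array. The brightest Npr1 probe was well above background on 9 of 16 arrays and ran from -4.27 to -3.63 in lactating Npr1-/-, -4.68 to -3.53 in lactating Npr1+/+, -4.15 to -3.71 in nulliparous Npr1-/- and -4.47 to -3.62 in nulliparous Npr1+/+ ventricles. The groups overlapped, and since the sources used here do not say whether the probe lies in the deleted part of the gene, it is no check of the labels.

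One array stood apart from its group. On the first principal component of all tested genes, nulliparous Npr1-/- replicate 4 lay at 11.7, between the lactating arrays at 24.1 to 36.0 and the other nulliparous arrays at -39.6 to -35.4. For the replication genes it lay above all 3 other nulliparous Npr1-/- arrays in 24 of the 36 tested, below all 3 in 5, and its median difference from their mean was 0.40 on the log2 scale. The count over all tested replication genes for lactation in Npr1-/- mice is therefore given with and without it. Counts by role and of other lists include it.

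In lactation some replication genes rose and others fell, and both directions occurred within the same complexes. In Npr1-/- ventricles 11 of the 36 tested were higher in lactating than in nulliparous mice, 5 were lower and 20 were not called, with limma at an adjusted p under 0.05 (Benjamini-Hochberg). In Npr1+/+ ventricles 12 were higher, 6 were lower and 18 were not called. Over all 14060 genes tested, 25.5% were called higher and 18.6% lower in lactation in Npr1-/- mice, and 31.8% and 18.5% in Npr1+/+ mice. In whole tissue, fewer cells of a type and less RNA per cell cannot be told apart.

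Centring each array on its median instead moves all genes up in lactation, so that their median log2 change is 0.24 in Npr1-/- mice and 0.28 in Npr1+/+ mice, where the 75th percentile gives 0.06 in Npr1-/- and 0.10 in Npr1+/+ mice. On that scale 17 replication genes were called higher and 0 lower in Npr1-/- mice, where 37.7% and 9.92% of all genes were called, and no replication gene was lower at an unadjusted p under 0.05 in limma. In Npr1+/+ mice 15 were higher and 1, Mcm7, lower, where 43.1% and 10.6% of all genes were called. No called replication gene turned its sign under that centring, but of the falls of replication genes the Mcm7 call in Npr1+/+ mice alone outlasted it, and each fall is relative to the 75th percentile of the array. The arrays lay on 2 slides, each with 2 arrays of every group. With slide as a block the counts were again 11 and 5 in Npr1-/- and 12 and 6 in Npr1+/+ mice. On slide 1 alone they were 13 and 6 in Npr1-/- and 7 and 4 in Npr1+/+ mice. On slide 2 alone limma called 0 in Npr1-/- mice, with 2 higher and 0 lower at an unadjusted p under 0.05, and 1 higher and 0 lower in Npr1+/+ mice, with 6 higher and 3 lower unadjusted. Every called replication gene had the same sign on each slide, 16 of 16 in Npr1-/- and 18 of 18 in Npr1+/+ mice.

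Among the 32 replication genes above background on all 16 arrays, 10 rose and 5 fell in lactating Npr1-/- ventricles. Of all 12704 such genes, 26.0% rose and 19.4% fell there. In Npr1+/+ ventricles 10 of the 32 rose and 6 fell, where 32.3% of all such genes rose and 19.3% fell. The shares called are thus close to those of the whole transcriptome in both genotypes. The median log2 change of the 32 was 0.25 in Npr1-/- mice and 0.23 in Npr1+/+ mice, and over all genes above background on the 16 arrays it was 0.05 in Npr1-/- and 0.09 in Npr1+/+ mice.

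**Figure D1:**
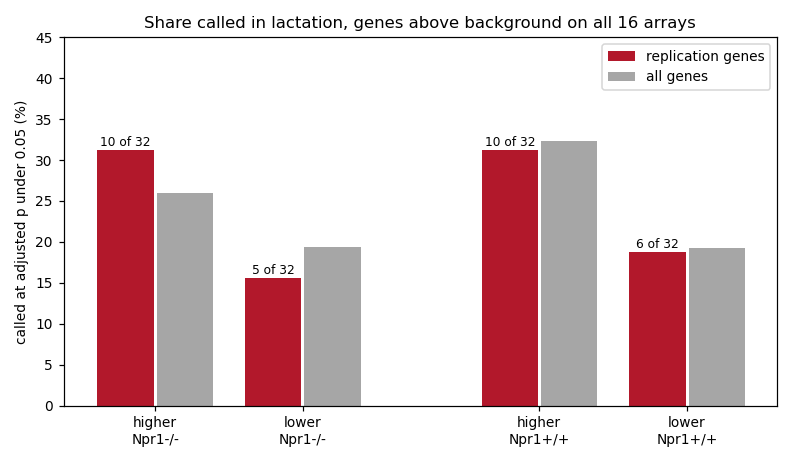
Share of genes called at an adjusted p under 0.05 in lactation, in percent, for the 32 replication genes above background on all 16 arrays (red, with counts above the bars) and for all 12704 such genes (grey), with Npr1-/- mice on the left and Npr1+/+ mice on the right. The red and grey bars are of similar height in each pair, 10 of 32 against 26.0% for the rise in Npr1-/- mice and 10 of 32 against 32.3% in Npr1+/+ mice.

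Without nulliparous Npr1-/- replicate 4, 19 of 36 replication genes rose in lactating Npr1-/- ventricles (52.8%) and 5 fell (13.9%). Over all genes the same fit called 30.6% higher and 22.7% lower. The 8 genes added to the rise were Cdc45, Cdt1, Chaf1b, Gins4, Prim2, Rfc3, Rfc4 and Rrm2. The 5 that fell were Mcm7, Pold1, Rfc1, Rfc2 and Rpa1, as with that array. Of the genes that rose, Cdc45, Gins2, Prim2 and Rfc3 were not well above background on all 16 arrays. Gins2 and Prim2 were tested only because of the lactating groups, which adds to the share that rose. For this fit the share among genes above background on every array is not given.

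Of the 36, 8 rose in both genotypes, namely Mcm2, Gins2, Gins3, Pcna, Rpa3, Tyms, Ung and Uhrf1. Another 4 fell in both, namely Mcm7, Rfc1, Rfc2 and Rpa1. Mcm3, Mcm5 and Tk1 passed the test for a rise in Npr1-/- mice, and Mcm6, Gins4, Prim2 and Rfc4 passed it in Npr1+/+ mice. Pold1 passed the test for a fall in Npr1-/- mice, and Fen1 and Lig1 passed it in Npr1+/+ mice. None of these differences between genotypes passed the test of the difference itself, which is given further on.

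**Figure D2:**
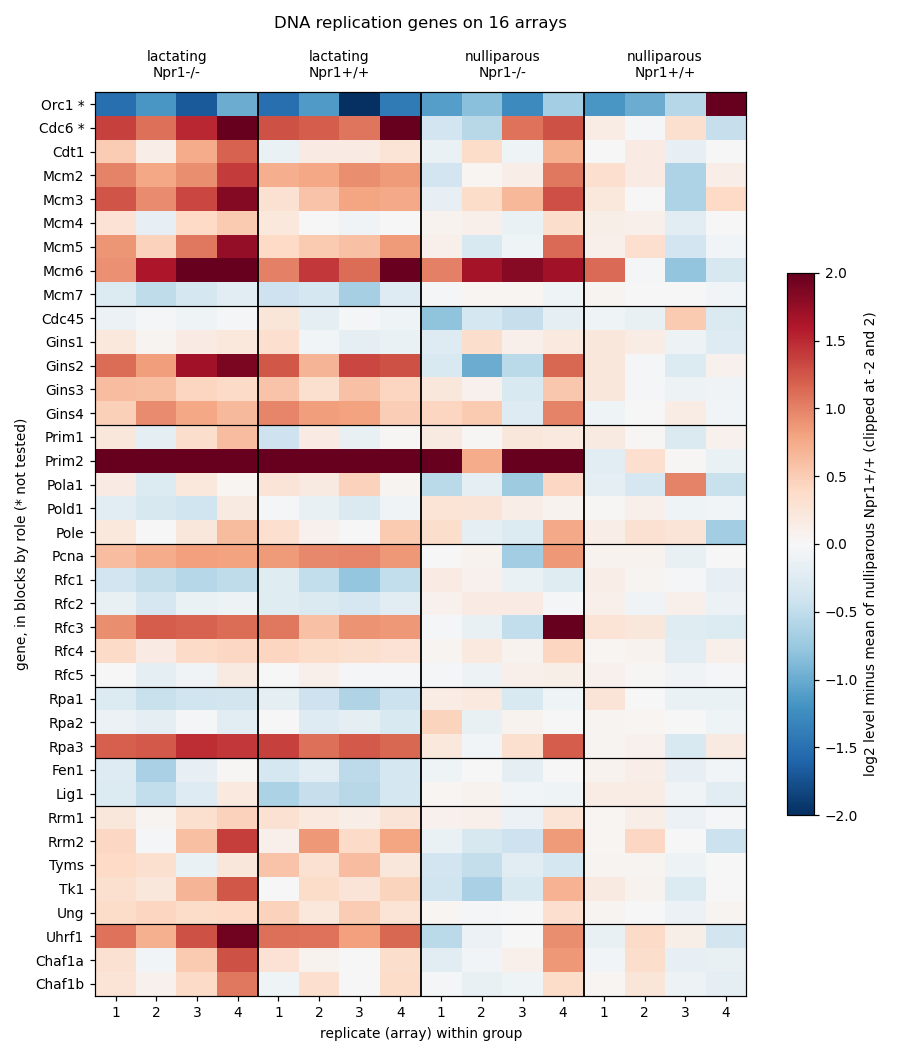
Heat map of the 38 replication genes on the 16 arrays, grouped by role in blocks, with replicates 1 to 4 of lactating Npr1-/-, lactating Npr1+/+, nulliparous Npr1-/- and nulliparous Npr1+/+ mice from left to right. Colour is the log2 level minus the mean of the nulliparous Npr1+/+ arrays, clipped at -2 and 2. Red rows such as Rpa3 and Pcna stand beside blue rows such as Rfc1 and Rpa1 in the lactating columns, and nulliparous Npr1-/- replicate 4 resembles the lactating columns in many rows.

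The licensing factors and the MCM ring had 9 genes, of which 7 were tested. In Npr1-/- mice 3 of the 7 rose and 1 fell in lactation, with a median log2 change of 0.42, and in Npr1+/+ mice 2 rose and 1 fell, with a median of 0.59. Orc1, the largest subunit of the origin recognition complex, was well above background on 1 of 16 arrays, nulliparous Npr1+/+ replicate 4, where it read -2.37. On the other arrays it read -7.09 to -5.66. Cdc6, a loading factor, was well above background on 3 of 4 lactating Npr1-/- arrays, on 3 of 4 lactating Npr1+/+ arrays and on none of the 8 nulliparous arrays, so it has no test. Cdt1, the other loading factor, ran from -0.41 to 0.65 in lactating Npr1-/-, -0.67 to -0.26 in lactating Npr1+/+, -0.66 to 0.17 in nulliparous Npr1-/- and -0.70 to -0.37 in nulliparous Npr1+/+ ventricles and was not called.

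Mcm7, a ring subunit, was lower in lactation. It read 2.12, 1.89, 2.05 and 2.16 in lactating Npr1-/- ventricles, against 2.38, 2.44, 2.43 and 2.31 in nulliparous Npr1-/- ventricles. In Npr1+/+ mice it read 1.99, 2.05, 1.74 and 2.14 in lactating ventricles, against 2.45, 2.40, 2.40 and 2.35 in nulliparous ventricles. All lactating arrays lay below all nulliparous arrays. The log2 change was -0.33 ± 0.09 (SE, limma adjusted p = 0.00826) in Npr1-/- mice and -0.42 ± 0.09 (adjusted p = 0.00154) in Npr1+/+ mice.

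Mcm6, another ring subunit, was higher in lactating Npr1+/+ mice. It read 1.94, 2.63, 3.02 and 3.54 in lactating Npr1-/- ventricles, against 2.04, 2.69, 2.84 and 2.70 in nulliparous Npr1-/- ventricles. The Npr1+/+ mice had 2.02, 2.44, 2.14 and 3.00 in lactating ventricles, against 2.16, 1.00, 0.23 and 0.71 in nulliparous ventricles. Nulliparous Npr1+/+ replicate 1 lay within the lactating range and the other 3 lay below it. Mcm6 rose by 1.38 ± 0.39 (adjusted p = 0.00931) in Npr1+/+ mice, and its change in Npr1-/- mice was 0.22 ± 0.39 (adjusted p = 0.674).

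The other ring genes moved the opposite way to Mcm7 or were not called. Mcm2 rose by 0.81 ± 0.26 in Npr1-/- mice (adjusted p = 0.0205) and by 0.82 ± 0.26 in Npr1+/+ mice (adjusted p = 0.0166). Mcm3 rose by 0.81 and Mcm5 by 0.83 in Npr1-/- mice, and in Npr1+/+ mice Mcm3 changed by 0.60 and Mcm5 by 0.59 without passing the test. Leaving out lactating replicate 4, nulliparous replicate 1 or nulliparous replicate 2 of the Npr1-/- mice ended the Npr1-/- calls of all 3, at adjusted p-values of 0.0562 to 0.116. Those of Mcm3 and Mcm5 also ended without lactating Npr1-/- replicate 3 (0.0575 and 0.0651) and that of Mcm5 without nulliparous Npr1-/- replicate 3 (0.091). Without nulliparous Npr1-/- replicate 4, which enters the spread of the fit, Mcm3 and Mcm5 passed the test in Npr1+/+ mice (adjusted p = 0.0489 and 0.0418), and without nulliparous Npr1+/+ replicate 3 Mcm2 did not (0.0566). With only the Npr1-/- groups in the fit the calls of Mcm2, Mcm3 and Mcm5 ended as well (0.0568, 0.0713 and 0.102). Without the filter, Mcm3 and Mcm5 also missed (0.054 and 0.0588). Mcm4 changed by 0.16 in Npr1-/- and 0.03 in Npr1+/+ mice and was not called. Within an array the ratio of Mcm2 to Mcm7 does not depend on the constant subtracted from the array. Relative to its mean in nulliparous Npr1+/+ ventricles, this log2 ratio was 1.26 to 1.64 in lactating Npr1-/-, 1.11 to 1.59 in lactating Npr1+/+, -0.36 to 1.13 in nulliparous Npr1-/- and -0.62 to 0.29 in nulliparous Npr1+/+ ventricles. The pair was chosen after its values were seen, so the ratio has no test.

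Promoters of ring genes and of the ligase that joins lagging-strand fragments are shown because genes that rose and genes that fell carry the same E2F letters. E2F proteins are the transcription factors best known for switching on replication genes at the entry to S phase. The windows are from RefSeq, build GRCm38.p6, run 5′ to 3′ on the gene's strand from 250 bases before the start to 50 after it, and carry the matches in capitals. The letters searched were TTTCCCGC, TTTGGCGC, TTTCGCGC and TTTGCCGC on both strands, and overlapping matches appear as 1 longer run.
Mcm5 (chr8:75109259-75109558, plus strand): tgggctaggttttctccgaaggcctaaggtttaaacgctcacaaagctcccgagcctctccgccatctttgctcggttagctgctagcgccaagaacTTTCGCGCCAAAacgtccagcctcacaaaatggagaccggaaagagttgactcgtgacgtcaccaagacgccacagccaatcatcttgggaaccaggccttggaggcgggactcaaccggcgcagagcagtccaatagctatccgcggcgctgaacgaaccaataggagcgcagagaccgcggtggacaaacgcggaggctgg
Mcm6 (chr1:128359656-128359955, minus strand): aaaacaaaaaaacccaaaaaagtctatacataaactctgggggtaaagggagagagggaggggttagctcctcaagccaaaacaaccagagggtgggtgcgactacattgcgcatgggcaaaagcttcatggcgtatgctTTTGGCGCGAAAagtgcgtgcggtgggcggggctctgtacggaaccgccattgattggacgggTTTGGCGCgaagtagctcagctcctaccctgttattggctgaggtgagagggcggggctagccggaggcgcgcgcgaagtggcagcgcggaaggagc
Mcm7 (chr5:138171834-138172133, minus strand): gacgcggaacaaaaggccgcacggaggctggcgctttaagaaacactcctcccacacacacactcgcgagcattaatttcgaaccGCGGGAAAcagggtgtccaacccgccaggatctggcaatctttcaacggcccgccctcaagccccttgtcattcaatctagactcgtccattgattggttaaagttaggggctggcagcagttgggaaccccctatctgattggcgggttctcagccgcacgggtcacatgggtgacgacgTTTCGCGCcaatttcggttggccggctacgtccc
Lig1 (chr7:13278576-13278875, plus strand): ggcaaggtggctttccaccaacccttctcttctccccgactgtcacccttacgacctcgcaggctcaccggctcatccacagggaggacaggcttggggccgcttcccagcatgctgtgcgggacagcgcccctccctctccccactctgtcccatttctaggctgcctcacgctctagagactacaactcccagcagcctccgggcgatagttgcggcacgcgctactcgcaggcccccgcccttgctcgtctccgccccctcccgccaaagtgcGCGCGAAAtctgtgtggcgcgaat

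With the start base counted as 1, the matches began at -153 and -149 in Mcm5, at -110, -106 and -47 in Mcm6, at -165 and 17 in Mcm7 and at 27 in Lig1. Mcm7 and Lig1 also have windows at other start sites, not shown, that held none of the E2F letters. Of the 36 windows found for 31 of the 38 genes, 13 held such letters (36.1%), against 2.26% of all 32851 windows in the table. CCAAT, the box bound by NF-Y, was in 61.1% of the replication windows on either strand and in 37.4% of all windows. TTTGAA, the core letters of the cell cycle homology region of mitotic genes, was in 11.1% of the replication windows and 17.9% of all windows. By call in lactation in either genotype, 5 of the 12 risen genes with a window held E2F letters, namely Gins3, Mcm3, Mcm5, Mcm6 and Uhrf1. They were also in 3 of the 6 fallen genes with a window, Lig1, Mcm7 and Pold1, and in 3 of 11 not called, Cdt1, Pola1 and Rfc3. The untested Cdc6 and Orc1 held them too. A match is a description of the letters and not of binding.

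The helicase activators Cdc45 and Gins1 to Gins4 had 2 of 5 genes called higher in Npr1-/- mice (median log2 change 0.37) and 3 of 5 in Npr1+/+ mice (median 0.48). Gins2 read -2.68, -2.97, -2.12 and -1.91 in lactating Npr1-/- ventricles, against -4.10, -4.79, -4.33 and -2.64 in nulliparous Npr1-/- ventricles. In Npr1+/+ mice Gins2 read -2.56, -3.12, -2.46 and -2.52 in lactating ventricles, against -3.57, -3.84, -4.07 and -3.71 in nulliparous ventricles. The Npr1+/+ groups did not overlap, and among nulliparous Npr1-/- mice replicate 4 alone reached the lactating range. Gins2 rose by 1.55 ± 0.36 (adjusted p = 0.00412) in Npr1-/- mice and by 1.13 ± 0.36 (adjusted p = 0.018) in Npr1+/+ mice. It is dim, well above background on all 8 lactating arrays and on 2 of 4 arrays in each nulliparous group, so it was tested only because of the lactating groups and the size of its change rests in part on signals near background. With normexp background correction its rise was 0.28 in Npr1-/- mice (adjusted p = 0.0406) and 0.19 in Npr1+/+ mice (adjusted p = 0.156).

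Gins3 and Gins4 are brighter subunits of the same complex. Gins3 read 3.42, 3.40, 3.23 and 3.19 in lactating Npr1-/- ventricles, against 3.03, 2.90, 2.50 and 3.34 in nulliparous Npr1-/- ventricles. For Npr1+/+ mice the values were 3.38, 3.13, 3.40 and 3.24 in lactating ventricles, against 3.02, 2.77, 2.70 and 2.73 in nulliparous ventricles. The Npr1+/+ groups were apart, and in Npr1-/- mice nulliparous replicate 4 lay inside the lactating range. Gins3 rose by 0.48 ± 0.14 (adjusted p = 0.0124) in Npr1+/+ mice and by 0.37 ± 0.14 in Npr1-/- mice, where the adjusted p of 0.0476 was close to the threshold. It passed without nulliparous Npr1-/- replicate 4 (0.00408) or nulliparous Npr1+/+ replicate 1 (0.047) and missed when any of the other arrays was left out, with adjusted p-values of 0.0515 to 0.151 and a change of 0.23 without nulliparous Npr1-/- replicate 3. It missed too with quantile normalization (0.0533), without the filter (0.0808), with the mean of probes (0.0501) and with only the groups compared (0.116).

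Gins4 read 0.93, 1.40, 1.23 and 1.09 in lactating Npr1-/- ventricles, against 0.88, 0.98, 0.20 and 1.44 in nulliparous Npr1-/- ventricles. Npr1+/+ mice gave 1.42, 1.29, 1.25 and 0.94 in lactating ventricles, against 0.37, 0.44, 0.60 and 0.40 in nulliparous ventricles. Only the Npr1+/+ groups were apart, with a rise of 0.78 ± 0.20 (adjusted p = 0.00512). The Npr1-/- change was 0.29 (adjusted p = 0.25), and 0.48 (adjusted p = 0.0329) without nulliparous replicate 4. Cdc45 and Gins1 changed by 0.39 and 0.06 in Npr1-/- mice and by -0.01 and -0.01 in Npr1+/+ mice and were not called.

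Of the 5 primase and polymerase genes, 1 was called in each genotype, Pold1 with a fall in Npr1-/- mice and Prim2 with a rise in Npr1+/+ mice. Prim2, the large subunit of primase, separated nulliparous Npr1+/+ ventricles from the lactating groups more widely than any other tested replication gene. It read -1.11, -1.36, -1.13 and -1.76 in lactating Npr1-/- ventricles, against -2.52, -5.09, -1.23 and -2.08 in nulliparous Npr1-/- ventricles. Among Npr1+/+ mice the levels were -1.38, -1.16, -1.09 and -1.06 in lactating ventricles, against -6.07, -5.50, -5.82 and -5.96 in nulliparous ventricles, none of which was well above background. On the signals as deposited, Prim2 was therefore at least 6.64-fold higher in lactating than in nulliparous Npr1+/+ ventricles (adjusted p = 8.1e-05). Prim2 was tested only because of the groups in which it is bright, and its p rests on nulliparous signals that were all not well above background. This bound sets the measured mean of the bright group against, on each dim array, the higher of the probe's own signal and the lowest signal among probes well above background.

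In Npr1-/- mice 3 of 4 nulliparous arrays measured Prim2, with replicate 2 not well above background. The lactation change there was 1.39 ± 0.55 (adjusted p = 0.0549), and it passed the test at 1.89 without nulliparous replicate 3 (0.0122) and at 1.60 without replicate 4 (0.038). It also passed with quantile normalization (0.0488), median centring (0.0297) and normexp (0.0466). Normexp gave log2 changes of 0.48 in Npr1-/- and 1.31 in Npr1+/+ mice, the second of them smaller than the bound above. Between nulliparous groups, on the signals as deposited, the same calculation put Prim2 2.26-fold higher in Npr1-/- than in Npr1+/+ ventricles. That value is no firm lower limit, as the Npr1-/- mean includes replicate 2, which was not well above background. Across the alternatives the lowest log2 difference was 0.71, below the 1.17 of that calculation. The limma adjusted p of the difference, 0.0532, misses the threshold. Without nulliparous Npr1-/- replicate 2 that adjusted p was 4.78e-06, and it was 0.0341 with quantile normalization, 0.0389 with median centring and 0.0253 on slide 2 alone. Prim1, the catalytic subunit of primase, changed by 0.09 in Npr1-/- mice and -0.09 in Npr1+/+ mice and was not called.

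Pold1, the catalytic subunit of the polymerase delta of the lagging strand, read 2.09, 2.00, 1.93 and 2.50 in lactating Npr1-/- ventricles, against 2.60, 2.59, 2.46 and 2.40 in nulliparous Npr1-/- ventricles. In Npr1+/+ mice it read 2.30, 2.18, 2.04 and 2.27 in lactating ventricles, against 2.35, 2.43, 2.25 and 2.28 in nulliparous ventricles. Lactating Npr1-/- replicate 4 lay among the nulliparous arrays and the other 3 lay below them. Pold1 fell by 0.38 ± 0.11 on the log2 scale in Npr1-/- mice (adjusted p = 0.0138, but 0.0825 with normexp and 0.0568 with only the groups compared), and its change in Npr1+/+ mice was -0.13 (adjusted p = 0.347). Pola1 and Pole, the catalytic subunits of polymerases alpha and epsilon, changed by 0.29 and 0.10 in Npr1-/- mice and by 0.24 and 0.23 in Npr1+/+ mice and were not called.

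The sliding clamp rose while parts of its loader fell. Pcna, the clamp, read 3.25, 3.37, 3.44 and 3.43 in lactating Npr1-/- ventricles, against 2.63, 2.70, 1.93 and 3.50 in nulliparous Npr1-/- ventricles. The Npr1+/+ mice had 3.48, 3.59, 3.60 and 3.48 in lactating ventricles, against 2.69, 2.69, 2.47 and 2.63 in nulliparous ventricles. Nulliparous Npr1-/- replicate 4 exceeded every lactating Npr1-/- array, and the other 7 nulliparous arrays lay below all 8 lactating arrays. Pcna rose by 0.68 ± 0.22, or 1.61-fold (adjusted p = 0.0207), in Npr1-/- mice and by 0.92 ± 0.22, or 1.89-fold (adjusted p = 0.0033), in Npr1+/+ mice. Without that array the rise in Npr1-/- mice was 1.94-fold (adjusted p = 0.00011), and without nulliparous Npr1-/- replicate 3, the lowest, it was 0.43 on the log2 scale and not called (0.0513). With only the Npr1-/- groups in the fit Pcna was not called either (0.0891).

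Rfc1, the large subunit of the clamp loader, read 3.19, 3.10, 3.00 and 3.07 in lactating Npr1-/- ventricles, against 3.74, 3.66, 3.44 and 3.33 in nulliparous Npr1-/- ventricles. For Npr1+/+ mice the values were 3.34, 3.08, 2.80 and 3.08 in lactating ventricles, against 3.71, 3.63, 3.53 and 3.41 in nulliparous ventricles. Within each genotype every lactating array lay below every nulliparous array. Rfc1 fell by 0.45 ± 0.12 on the log2 scale in Npr1-/- mice (adjusted p = 0.00752) and by 0.50 ± 0.12 in Npr1+/+ mice (adjusted p = 0.00317).

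Rfc2, a small loader subunit, read 1.88, 1.70, 1.91 and 1.93 in lactating Npr1-/- ventricles, against 2.13, 2.20, 2.20 and 2.02 in nulliparous Npr1-/- ventricles. Npr1+/+ mice gave 1.79, 1.75, 1.70 and 1.82 in lactating ventricles, against 2.14, 1.96, 2.13 and 1.91 in nulliparous ventricles. The groups did not overlap in either genotype, and Rfc2 fell by 0.28 ± 0.08 on the log2 scale in Npr1-/- mice (adjusted p = 0.0114) and by 0.27 ± 0.08 in Npr1+/+ mice (adjusted p = 0.0118). Normexp ended both calls (0.069 in Npr1-/- and 0.0531 in Npr1+/+ mice). Rfc4, another small subunit, rose by 0.35 ± 0.10 in Npr1+/+ mice (adjusted p = 0.00912) and changed by 0.15 in Npr1-/- mice (adjusted p = 0.235), or 0.23 (0.0442) without nulliparous Npr1-/- replicate 4. A second, dimmer Rfc4 probe changed the other way, by -0.09 in Npr1-/- and -0.17 in Npr1+/+ mice, and the mean of both probes was not called in Npr1+/+ mice (0.09, adjusted p = 0.386). Rfc3 was not called, with changes of 0.69 in Npr1-/- and 0.85 in Npr1+/+ mice, and nulliparous Npr1-/- replicate 4 read -0.92 there where the other 3 arrays of its group read -3.77 to -3.30. Rfc5 changed by -0.05 in Npr1-/- and 0.01 in Npr1+/+ mice and was not called.

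The subunits of replication protein A, which coats single-stranded DNA, moved apart in both genotypes. Rpa3, the small subunit, read 2.83, 2.85, 3.10 and 3.03 in lactating Npr1-/- ventricles, against 1.84, 1.57, 1.95 and 2.84 in nulliparous Npr1-/- ventricles. Among Npr1+/+ mice the levels were 3.00, 2.72, 2.86 and 2.77 in lactating ventricles, against 1.67, 1.72, 1.32 and 1.80 in nulliparous ventricles. All nulliparous arrays other than Npr1-/- replicate 4 lay below all lactating arrays. Rpa3 rose by 0.90 ± 0.21, or 1.87-fold (adjusted p = 0.00348), in Npr1-/- mice and by 1.21 ± 0.21, or 2.31-fold (adjusted p = 0.000383), in Npr1+/+ mice.

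Rpa1, the large DNA-binding subunit, read 4.25, 4.08, 4.12 and 4.15 in lactating Npr1-/- ventricles, against 4.66, 4.71, 4.21 and 4.42 in nulliparous Npr1-/- ventricles. In Npr1+/+ mice it read 4.33, 4.11, 3.92 and 4.08 in lactating ventricles, against 4.76, 4.52, 4.39 and 4.38 in nulliparous ventricles. The Npr1+/+ groups were apart and the Npr1-/- groups overlapped at nulliparous replicate 3. Rpa1 fell by 0.35 ± 0.12 on the log2 scale in Npr1-/- mice (adjusted p = 0.0304) and by 0.40 ± 0.12 in Npr1+/+ mice (adjusted p = 0.0133). The Npr1-/- call ended without any 1 of lactating replicates 2, 3 and 4 and nulliparous replicates 1 and 2 (adjusted p = 0.057 to 0.101), with only the groups compared (0.0552) and without the filter (0.0547). Normexp ended the call in both genotypes (0.149 in Npr1-/- and 0.0794 in Npr1+/+ mice). Rpa2, the middle subunit, changed by -0.23 in Npr1-/- and -0.19 in Npr1+/+ mice and was not called.

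Within an array the log2 ratio of Rpa3 to Rpa1, relative to its mean in nulliparous Npr1+/+ ventricles, was 1.47 to 1.86 in lactating Npr1-/-, 1.50 to 1.83 in lactating Npr1+/+, -0.25 to 1.30 in nulliparous Npr1-/- and -0.20 to 0.30 in nulliparous Npr1+/+ ventricles. The ratio of Rfc4 to Rfc1 was 0.64 to 0.95 in lactating Npr1-/-, 0.66 to 1.09 in lactating Npr1+/+, -0.11 to 0.67 in nulliparous Npr1-/- and -0.17 to 0.26 in nulliparous Npr1+/+ ventricles. These ratios show unequal change and do not depend on the constant subtracted from an array, though background correction or quantile normalization can move them. They were picked after the values were seen and have no test.

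**Figure D3:**
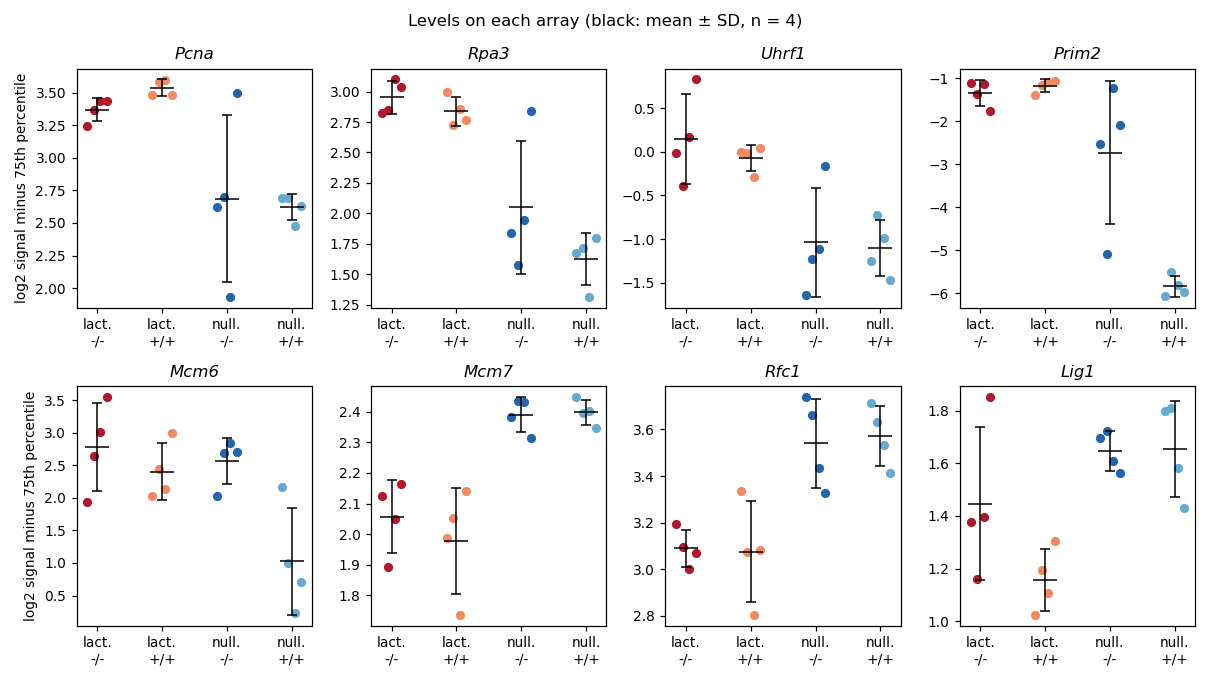
Levels of Pcna, Rpa3, Uhrf1, Prim2, Mcm6, Mcm7, Rfc1 and Lig1 on each array, as log2 signal relative to the 75th percentile of the array, for lactating Npr1-/-, lactating Npr1+/+, nulliparous Npr1-/- and nulliparous Npr1+/+ mice from left to right. Coloured points are arrays and black marks the mean ± SD of 4. Pcna, Rpa3 and Uhrf1 are higher in the lactating groups apart from 1 high nulliparous Npr1-/- array, Mcm7 and Rfc1 are lower, and Prim2 lies at -6.07 to -5.50 in nulliparous Npr1+/+ mice.

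The genes that finish lagging-strand fragments fell in Npr1+/+ mice. Lig1, the replicative DNA ligase, read 1.38, 1.16, 1.40 and 1.85 in lactating Npr1-/- ventricles, against 1.70, 1.72, 1.61 and 1.56 in nulliparous Npr1-/- ventricles. The Npr1+/+ mice had 1.02, 1.19, 1.10 and 1.30 in lactating ventricles, against 1.80, 1.81, 1.58 and 1.43 in nulliparous ventricles. The Npr1+/+ groups were apart, while in Npr1-/- mice lactating replicate 4 was the highest array of both groups. Lig1 fell by 0.50 ± 0.13 on the log2 scale in Npr1+/+ mice (adjusted p = 0.00591), and its change in Npr1-/- mice was -0.20 (adjusted p = 0.223), or -0.34 (0.0286) without lactating replicate 4.

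Fen1, the flap endonuclease that trims the fragments, read 1.02, 0.63, 1.11 and 1.30 in lactating Npr1-/- ventricles, against 1.18, 1.26, 1.09 and 1.27 in nulliparous Npr1-/- ventricles. For Npr1+/+ mice the values were 0.91, 1.04, 0.75 and 0.92 in lactating ventricles, against 1.34, 1.41, 1.11 and 1.22 in nulliparous ventricles. It fell by 0.37 ± 0.12 in Npr1+/+ mice (adjusted p = 0.0234), where the groups did not overlap, and changed by -0.19 in Npr1-/- mice (adjusted p = 0.231), where they did. The Npr1+/+ call ended without lactating replicate 3 or nulliparous replicate 1 or 2 of that genotype (adjusted p = 0.0569 to 0.0714).

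Of the 5 genes of nucleotide supply and uracil removal, 3 rose in Npr1-/- and 2 in Npr1+/+ mice. Tyms, thymidylate synthase, read -2.25, -2.32, -2.77 and -2.42 in lactating Npr1-/- ventricles, against -3.03, -3.12, -2.87 and -3.00 in nulliparous Npr1-/- ventricles. Npr1+/+ mice gave -2.08, -2.34, -2.03 and -2.42 in lactating ventricles, against -2.59, -2.60, -2.74 and -2.66 in nulliparous ventricles. Neither pair of groups overlapped. Tyms rose by 0.56 ± 0.12 (adjusted p = 0.00222) in Npr1-/- mice and by 0.43 ± 0.12 (adjusted p = 0.0079) in Npr1+/+ mice, but with normexp background correction the changes of this dim probe were -0.016 in Npr1-/- and 0.016 in Npr1+/+ mice, with an adjusted p of 0.906 for both.

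Ung, which removes uracil from DNA, read 4.50, 4.55, 4.49 and 4.52 in lactating Npr1-/- ventricles, against 4.16, 4.09, 4.13 and 4.45 in nulliparous Npr1-/- ventricles. Among Npr1+/+ mice the levels were 4.59, 4.34, 4.63 and 4.39 in lactating ventricles, against 4.18, 4.13, 4.00 and 4.18 in nulliparous ventricles. The groups were apart in both genotypes, and Ung rose by 0.31 ± 0.09 in Npr1-/- mice (adjusted p = 0.016) and by 0.36 ± 0.09 in Npr1+/+ mice (adjusted p = 0.00502). Without nulliparous Npr1-/- replicate 2 the Npr1-/- adjusted p was 0.0532. Tk1, the thymidine kinase of dividing cells, rose by 0.78 ± 0.26 in Npr1-/- mice (adjusted p = 0.026) and changed by 0.27 in Npr1+/+ mice (adjusted p = 0.406). Its call ended without lactating replicate 3 or 4 or nulliparous replicate 1, 2 or 3 of the Npr1-/- mice (0.0548 to 0.0884), and with only those groups in the fit (0.0901). The ribonucleotide reductase subunits Rrm1 and Rrm2 changed by 0.18 and 0.60 in Npr1-/- mice and by 0.22 and 0.53 in Npr1+/+ mice and were not called.

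Of the chromatin genes at the fork, Uhrf1 rose in both genotypes. Uhrf1, which brings the maintenance DNA methyltransferase to newly copied DNA, read -0.02, -0.40, 0.17 and 0.83 in lactating Npr1-/- ventricles, against -1.64, -1.23, -1.12 and -0.17 in nulliparous Npr1-/- ventricles. In Npr1+/+ mice it read 0.00, -0.01, -0.29 and 0.04 in lactating ventricles, against -1.25, -0.72, -0.98 and -1.47 in nulliparous ventricles. Only nulliparous Npr1-/- replicate 4 reached the lactating range. Uhrf1 rose by 1.19 ± 0.29, or 2.27-fold (adjusted p = 0.00508), in Npr1-/- mice and by 1.04 ± 0.29, or 2.05-fold (adjusted p = 0.00843), in Npr1+/+ mice. A second Uhrf1 probe, well above background on 1 array, changed by -0.33 in Npr1-/- and -1.24 in Npr1+/+ mice, and averaging both probes gave 0.43 in Npr1-/- mice (adjusted p = 0.321) and -0.10 in Npr1+/+ mice (0.824).

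Chaf1b, a subunit of chromatin assembly factor, read -0.03, -0.22, 0.08 and 0.76 in lactating Npr1-/- ventricles, against -0.32, -0.44, -0.39 and 0.06 in nulliparous Npr1-/- ventricles. The Npr1+/+ mice had -0.38, 0.04, -0.31 and 0.07 in lactating ventricles, against -0.25, -0.06, -0.39 and -0.48 in nulliparous ventricles. The groups overlapped in both genotypes, and the changes of 0.42 in Npr1-/- mice (adjusted p = 0.0854) and 0.15 in Npr1+/+ mice (adjusted p = 0.532) were not called. In Npr1-/- mice the change passed the test without nulliparous replicate 4 (0.53, adjusted p = 0.0345) or lactating replicate 2 (0.54, 0.0419). Its partner Chaf1a changed by 0.34 in Npr1-/- and 0.18 in Npr1+/+ mice and was not called.

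**Figure D4:**
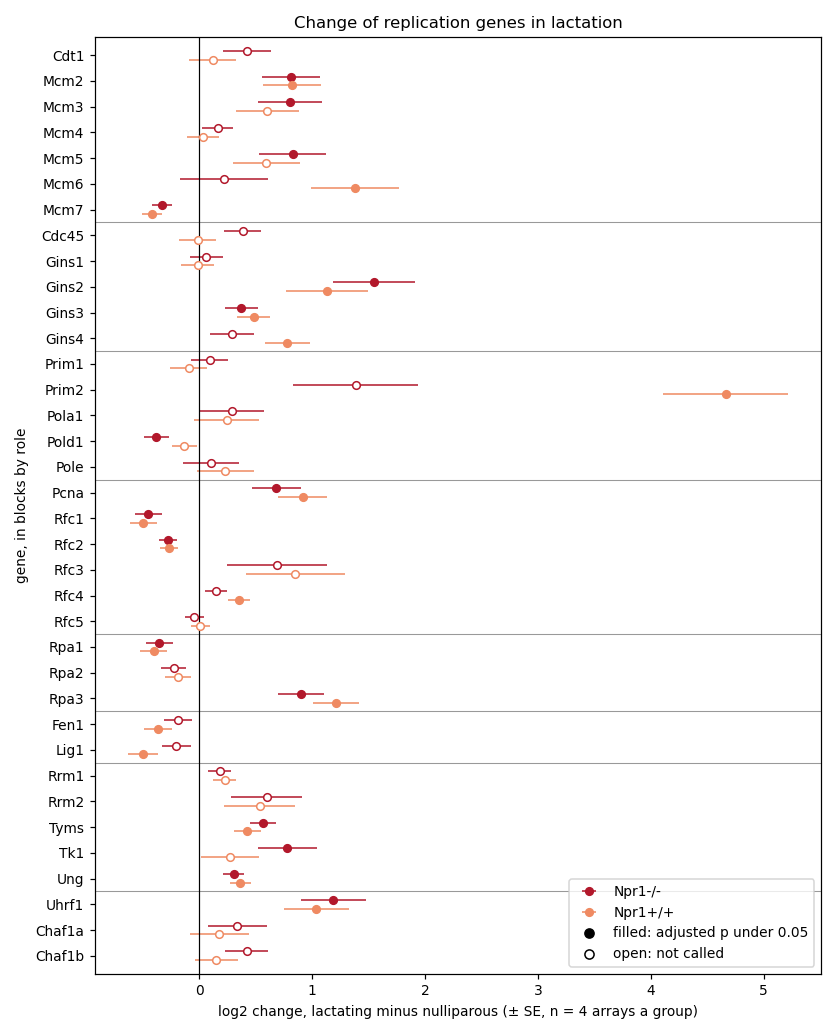
Log2 change, lactating minus nulliparous, with its SE for the 36 tested replication genes in blocks by role (n = 4 arrays a group), Npr1-/- mice in dark red above Npr1+/+ mice in orange. Filled points passed an adjusted p under 0.05. Positive and negative filled points occur together among the MCM ring, the clamp and its loader, and replication protein A, and the fitted Prim2 value in Npr1+/+ mice rests on nulliparous signals that were not well above background.

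Npr1-/- and Npr1+/+ ventricles were next compared within each state. In lactating mice 0 of 36 replication genes were called by limma in either direction, where 0.0640% of all genes were higher and 0.135% lower in Npr1-/- ventricles. At an unadjusted p under 0.05, 3 were higher in Npr1-/- and 0 lower. They were Mcm3 (log2 difference 0.74), Cdt1 (0.52) and Lig1 (0.29), with a smallest adjusted p of 0.418 over the 36. In nulliparous mice 0 were called as well, where 0.0711% of all genes were higher and 0.0284% lower in Npr1-/- ventricles. There 2 were higher and 2 lower at an unadjusted p under 0.05. Prim2 and Mcm6 were the higher genes, Mcm6 with a difference of 1.54 and an adjusted p of 0.261, and Cdc45 and Tyms were the lower ones, at -0.45 and -0.36.

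Whether lactation changed a gene differently in the Npr1-/- and Npr1+/+ mice was tested by the interaction. No replication gene was called by limma in either direction, where 0.0213% of all genes had a positive and 0.0711% a negative interaction. At an unadjusted p under 0.05, 0 were positive and 1 negative, Prim2, with an adjusted p of 0.302, and 0.000112 without nulliparous Npr1-/- replicate 2. For Mcm6 the interaction was -1.16 ± 0.55 (adjusted p = 0.785). A miss of the threshold does not show that the genotypes respond alike.

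Other genes of the pathway, from lists that do not overlap the 38, also held rises and falls. Over all genes tested the shares called higher and lower were 25.5% and 18.6% in Npr1-/- and 31.8% and 18.5% in Npr1+/+ mice, and counts near these say nothing particular about a list. Among 37 tested genes of other origin and fork proteins, 11 rose and 6 fell in Npr1-/- mice, and 9 rose and 6 fell in Npr1+/+ mice. Above background on all 16 arrays were 33 of the 37. Within the 33, 9 rose and 6 fell in Npr1-/- mice, and 8 rose and 6 fell in Npr1+/+ mice. Orc5, of the origin recognition complex, rose by 1.06 in Npr1-/- and 1.09 in Npr1+/+ mice, and Pold4, a small polymerase delta subunit, rose by 0.70 in Npr1-/- and 0.96 in Npr1+/+ mice. Pole3, a histone-fold subunit of polymerase epsilon, fell by 0.55 in Npr1-/- mice and by 0.62 in Npr1+/+ mice. Mcmbp, Orc4 and Pold3 also fell in both genotypes, by 0.36 to 0.74 on the log2 scale. Chtf18 and Rnaseh2a passed the test for a fall in Npr1-/- mice, and Dnmt1 and Nasp passed it in Npr1+/+ mice.

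Among 19 tested genes of other nucleotide supply, 7 rose and 1 fell in Npr1-/- mice, and 9 rose and 3 fell in Npr1+/+ mice. Cmpk1, a pyrimidine nucleoside monophosphate kinase, rose by 0.82 in Npr1-/- and 1.04 in Npr1+/+ mice, and Nme1, a nucleoside diphosphate kinase, rose by 1.07 in Npr1-/- and 1.16 in Npr1+/+ mice. Shmt1, which feeds one-carbon units to thymidylate synthesis, rose by 0.91 in Npr1-/- and 1.97 in Npr1+/+ mice, and Atic, of purine synthesis, by 0.74 in Npr1-/- and 0.81 in Npr1+/+ mice. Impdh2, the step towards guanine nucleotides, fell by 0.29 in both genotypes. Ctps2, a CTP synthase, fell by 0.25 in Npr1+/+ mice.

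Of 20 tested genes of G1/S control, 10 rose in Npr1-/- mice, and 10 rose and 1 fell in Npr1+/+ mice. The transcription factor E2f3 rose by 0.93 in Npr1-/- and 1.06 in Npr1+/+ mice, and its partner Tfdp1 by 0.88 in Npr1-/- and 0.85 in Npr1+/+ mice. E2f6, a repressor of the family, rose by 0.45 in Npr1-/- and 0.50 in Npr1+/+ mice, and E2f5 by 0.76 in Npr1-/- and 0.99 in Npr1+/+ mice. E2f8, another repressor, fell by 0.52 in Npr1+/+ mice. The median change of the G1/S genes above background on all 16 arrays was 0.45 in Npr1-/- mice and 0.42 in Npr1+/+ mice, and over all such genes it was 0.05 in Npr1-/- and 0.09 in Npr1+/+ mice.

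Markers of mitosis and of some other cells moved with lactation too. All 4 tested of 6 mitosis markers rose in both genotypes, Mki67 by 2.02 in Npr1-/- and 1.42 in Npr1+/+ mice and Cdc20 by 1.37 in Npr1-/- and 1.42 in Npr1+/+ mice. Their summed signal over the 75th percentile was 4.34 to 10.9 in lactating Npr1-/-, 2.85 to 7.86 in lactating Npr1+/+, 1.16 to 4.59 in nulliparous Npr1-/- and 1.59 to 2.70 in nulliparous Npr1+/+ ventricles. The 4.59 is replicate 4, and the other nulliparous Npr1-/- arrays had at most 1.91. Lactating Npr1-/- replicate 4, which had the 10.9, was also the highest of its group for 23 of the 36 replication genes. Cdk1 and Aurkb were not tested. No array of the lactating Npr1+/+ group or of either nulliparous group had Aurkb well above background, and no nulliparous Npr1+/+ array had Ccnb1. Ccnb1 was thus tested only because of the lactating groups, and its rise rests on nulliparous signals near background. The 3 mitosis markers above background on all 16 arrays rose in both genotypes. Over all genes above background on the 16 arrays, 26.0% rose in Npr1-/- and 32.3% in Npr1+/+ mice.

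Of 9 macrophage markers, the 8 well above background on all 16 arrays rose in both genotypes. Over all such genes 26.0% rose in Npr1-/- and 32.3% in Npr1+/+ mice. The other marker, Fcgr1, was called higher in Npr1-/- mice but was tested only because of the lactating Npr1-/- group. The 9 markers summed to 56.5 to 68.5 in lactating Npr1-/- and 49.3 to 57.5 in lactating Npr1+/+ ventricles. In nulliparous ventricles the sum was 23.2 to 45.4 in Npr1-/- mice, with the 45.4 again replicate 4, and 25.9 to 30.9 in Npr1+/+ mice. Of 6 erythroid precursor markers, 3 were tested, of which 3 rose in Npr1-/- and 2 in Npr1+/+ mice. Their summed signal was 22.7 to 32.0 in lactating Npr1-/-, 21.7 to 25.6 in lactating Npr1+/+, 8.75 to 14.6 in nulliparous Npr1-/- and 9.85 to 13.2 in nulliparous Npr1+/+ ventricles, while Klf1 was well above background on no array. The 3 atrial markers summed to 2.80 to 3.49 in lactating Npr1-/-, 3.07 to 3.85 in lactating Npr1+/+, 2.68 to 23.3 in nulliparous Npr1-/- and 6.69 to 11.6 in nulliparous Npr1+/+ ventricles, the 2.68 being replicate 4. Of the 8 ventricular markers 2 rose and 5 fell in Npr1-/- and 3 rose and 3 fell in Npr1+/+ mice. Of 7 fibroblast markers 4 rose in Npr1-/- mice, and 3 rose and 1 fell in Npr1+/+ mice. Of 4 mesothelial markers 2 were tested, and both rose in Npr1+/+ mice and 1, Wt1, in Npr1-/- mice. The other, Msln, was well above background on 4 of 4 lactating and 0 of 4 nulliparous Npr1+/+ arrays. It was tested only because of the lactating groups, and its rise rests on nulliparous signals near background. Endothelial markers, 7 tested, had 3 rises and 1 fall in Npr1-/- mice, and 2 rises and 1 fall in Npr1+/+ mice. Smooth muscle and pericyte markers, 6 tested, had 1 rise and 2 falls in each genotype. Neutrophil markers, 4 tested, had 1 fall in Npr1-/- mice, and 2 rises and 1 fall in Npr1+/+ mice. No T cell or B cell marker rose, and 1 of each fell in Npr1+/+ mice. Adipocyte markers, 3 tested, had 2 falls in Npr1-/- mice and 1 rise in Npr1+/+ mice. The part of these cells in the changes of the replication genes was not tested.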

How the data were processed

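Ventricular RNA of 16 mice was measured, 1 array each. Per the file headers and the submitters' processing notes, the authors extracted spots with Agilent Feature Extraction 10.7.3.1. The deposited intensity values are linear, background-subtracted and not scaled between arrays. The authors also deposited a log2 table per probe, with its scale, centring and direction unstated. Over 24442 probes each of its columns correlated at r = 1 with the log2 signal less the 75th percentile and the nulliparous Npr1+/+ mean, so none of the 3 stays unknown. Its column medians ran from -0.382 to 0.0318.

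Control and outlier spots were left out and 59305 spots were averaged into 55681 probes. Log2 signals minus each array's 75th percentile were fitted with 4 group means in limma 3.58.1 (R 4.3.3), and p-values were adjusted over 14060 genes. On simulated data the fit was tested first. Probes were named through a RefSeq gene table of GRCm38.p6. The array headers name another build, so no array coordinates are given. The number of arrays limits the precision, and so does the signal over background of dim probes.

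The genes and lists were chosen with earlier results of these data known. Values on each array are given for the 2 genes per role of smallest adjusted p for lactation in Npr1+/+ mice, all called falls and the largest rise in each genotype. From the other pathway lists the 3 most strongly called genes and all called falls are named. Some genes of these lists are counted but not reported by name here. Each slide holds 2 arrays of every group. Array position on a slide is the same for all arrays of a group, so the 2 cannot be told apart. The alternatives were normexp (offset 50, on median spot signals), quantile normalization, median centring, no filter, a filter on all 16 arrays, mean of probes, only the groups compared, slide and replicate blocks, each slide alone, leaving out single arrays and the deposited log2 table. Figures used matplotlib 3.10.9.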

Additional observations from a re-analysis of the deposited data

Results flagged for a closer look

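Of 144 groups of 4 arrays, 5 held an array whose distance from the nearest other, relative to the range of its group, passed Dixon's 95% limit, where chance gives about 1 in 20 groups. Gins2 read -3.124 on lactating Npr1+/+ replicate 2, with the nearest array at -2.56. Pole read -1.27 on nulliparous Npr1+/+ replicate 4, with the nearest at -0.441. Rfc3 read -0.924 on nulliparous Npr1-/- replicate 4, with the nearest at -3.301. Rfc4 read 1.857 on lactating Npr1-/- replicate 2, with the nearest at 2.076. Uhrf1 read -0.29 on lactating Npr1+/+ replicate 3, with the nearest at -0.014.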

How the results depend on the processing

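Counts of replication genes called in lactation moved by over 1.5 times under some alternatives. In Npr1-/- mice the 11 called higher became 17 with median centring, 5 with only the groups compared and 0 on slide 2 alone (limma, 2 at an unadjusted p under 0.05). The 5 called lower became 2 with normexp, 0 with median centring (limma, 0 unadjusted), 3 with only the groups compared and 0 on slide 2 alone (limma, 0 unadjusted). In Npr1+/+ mice the 12 higher became 7 on slide 1 and 1 on slide 2 alone, and the 6 lower became 1 with median centring and 0 on slide 2 alone (limma, 3 unadjusted). Leaving out 1 array gave 5 to 19 higher and 4 to 5 lower in Npr1-/- mice, and 12 to 15 higher and 5 to 6 lower in Npr1+/+ mice. In Npr1-/- mice the rises were 7 and 6 without lactating replicates 3 and 4, 6 and 5 without nulliparous replicates 1 and 2, and 19 without nulliparous replicate 4. Nulliparous Npr1-/- against Npr1+/+ gave 0 to 1 called higher on leaving out 1 array, and 1 with quantile normalization, median centring or slide 2 alone, Prim2 each time. The interaction gave 0 to 1 lower, Prim2 at -4.06 without nulliparous Npr1-/- replicate 2. Tyms turned to -0.016 in Npr1-/- mice with normexp, and Uhrf1 to -0.099 in Npr1+/+ mice with the mean of probes. The cause was not tested. Without the filter, all genes called were 4304 higher and 5060 lower in Npr1+/+ mice, against 4466 and 2604 with it. Arrays of the same number share a slide and a scan, but each slide holds 2 numbers and the labels tie a number to no litter or day. With it as a replicate block 11 and 5 genes were called in Npr1-/- mice and 13 and 6 in Npr1+/+ mice, and the deviations of 24 same-numbered pairs correlated at -0.189 to 0.188. Over all alternatives, 257 counts stayed within 1.5 times and 21 did not, and of the values of the 18 genes given on each array 2388 kept their side of the threshold, 84 lost a call, 18 gained one and 2 turned sign. Dim probes, such as those of Orc1, Cdc6, Gins2 and Prim2, limit what can be measured.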
